A study of Rattus norvegicus with 9 samples.

Results

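Macrophages are resident phagocytes of the uterus, and the genes described here are 40 genes of macrophages and of antigen presentation by major histocompatibility complex (MHC) class II. They were listed by name and matched to probe sets by the gene symbol of the array annotation, with the probe set of highest mean standing for its gene. Of the 40 genes, 38 had a probe set, out of 14217 genes with one, and Msr1 and Spi1 had none. A filter on low values left 33 of the 38, out of 10973 genes tested in all. Uterine tissue of female rats had been profiled on 9 Affymetrix arrays, 3 in each group. Treatment rats (arrays 31, 32 and 33) had ovulation induced with PMSG, a gonadotropin of pregnant horse serum given at 0.5 U to each rat, and with HCG, human chorionic gonadotropin, in an equal amount 48 h later. They also received electroacupuncture at 2 points, Guanyuan and Sanyinjiao, in sessions of 15 min on the 7 days ahead of the induction and on through it. Model rats (arrays 21, 22 and 23) had the induction alone, and no sham needling is named in the labels. Control rats (arrays 41, 42 and 43) were untreated, and their stage of the oestrous cycle was not given. The labels count 18 rats, 6 per group, and do not say that each array held the RNA of a separate rat, so the p-values measure the spread between these arrays.

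Tissue macrophages depend on the receptor for colony stimulating factor 1, engulf debris through scavenger and Fc receptors, and digest it with lysosomal enzymes. Together with dendritic cells and B cells they display peptides on MHC class II molecules, which are assembled on the invariant chain Cd74 and loaded with the help of DM proteins. In rodents, ovarian steroids regulate the number and place of macrophages in the uterus through the cycle. All tissue was whole uterus, in which fewer macrophages and less RNA per macrophage cannot be told apart.

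Intensities are the deposited values on a linear scale, and the median probe set lay at 23.5 to 23.96 on the 9 arrays. Log2 values are of the intensity plus 16, which understates differences of dim genes. Control 43 stood apart from the other controls: its log2 values correlated at 0.9446 with control 41 and 0.9594 with control 42 across probe sets, against 0.9889 between those 2, and the array most like it was model 21. Smooth muscle, stromal and epithelial markers were above the filter in 12 of 12, 9 of 9 and 16 of 16 genes listed. They mark cell types found in the uterus and are not specific to it. Among the macrophage markers Cd68, Csf1r, Mrc1 and Lyz2 passed the filter. Cd163 and Itgam, which encodes CD11b, did not.

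The macrophage and class II genes varied widely between arrays of the same group, and 1 difference between groups passed the test. In treatment against control arrays 1 of the 33 genes passed at an adjusted p under 0.05 by limma, against 56 of all 10973 genes (0.51%). It was Adap2, which was lower, as were 37 of the 56 (0.337% of all genes). In model against control arrays 0 of 33 passed, against 3 of all genes (0.0273%), and 0 of 33 had an unadjusted p under 0.05, against 12.4% of all genes. In treatment against model arrays 0 of 33 passed, against 0 of all genes (0%), and 2 had an unadjusted p under 0.05 (6.06%, against 14.7% of all genes). In treatment against control arrays that count was 4 (12.1%, against 17.4%). Without control 43 the counts at an unadjusted p under 0.05 were 9 of 33 in treatment against control arrays (27.3%, against 24.4% of all genes) and 4 in model against control arrays (12.1%, against 31.2%). The comparisons of treatment and of model with control share the 3 control arrays.

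Groups did not overlap in 5 of 33 genes between treatment and control arrays (15.2%, against 23.3% of all genes). These were Adap2, Lcp1 and Aif1, lower in every treatment array, and Ctsb and Ciita, higher in every treatment array. Between model and control arrays Adap2 alone did not overlap (3.03%, against 14.5%). Between treatment and model arrays 4 genes did not (12.1%, against 28%), with Adap2 and Itgb2 lower and Cd14 and Ciita higher in every treatment array.

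The signs of the fitted differences were mostly negative wherever treatment arrays were compared. In treatment against control arrays 25 of 33 log2 fold changes were negative, with a median of -0.37, against 57.8% negative and a median of -0.04 over all genes. In treatment against model arrays 26 of 33 were negative, with a median of -0.52, against 61.1% negative and a median of -0.05 over all genes. In model against control arrays 19 were positive and 14 negative, with a median of 0.07, against 0.02 over all genes. Without control 43 the medians were -0.57 in treatment against control arrays, -0.08 in model against control arrays and -0.52 in treatment against model arrays, and 2 genes passed in treatment against control arrays (Adap2 and Fcgr1a), against 720 of all genes (6.56%).

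The arrays with high or low levels were largely the same from gene to gene. Model 22 was the highest of the 9 arrays for 18 of 33 genes (54.5%, against 12.8% of all genes) and control 41 for 9 (27.3%, against 19.8%). Treatment 32 was the lowest for 13 (39.4%, against 16%), model 21 for 11 (33.3%, against 13.9%) and control 43 for 7 (21.2%, against 9.98%). Each group therefore held 1 array in which most of these genes were low. Within groups, treatment 32 was the lowest treatment array for 24 genes (72.7%, against 35.9% of all genes), model 21 the lowest model array for 28 (84.8%, against 41.9%) and control 43 the lowest control array for 31 (93.9%, against 37.1%). These genes move together, so the counts are not of independent genes.

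The spread within groups was wide compared with that of other genes. The median standard deviation of the 33 genes on the log2 scale was 0.26 in treatment, 0.70 in model and 0.46 in control arrays, against 0.11, 0.12 and 0.15 over all genes. The SD pooled over groups lay above the 90th percentile of all genes for 26 of the 33 and below the 50th for 3, which were Ciita, Cx3cr1 and Adap2. Model 22 exceeded the mean of models 21 and 23 by a median of 0.91 log2 units over the 33 genes. Control 43 lay below the mean of controls 41 and 42 by a median difference of -0.73, and treatment 32 differed from the mean of treatments 31 and 33 by -0.30. Over all genes these 3 medians were 0.01, 0.02 and -0.002.

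**Figure D1:**
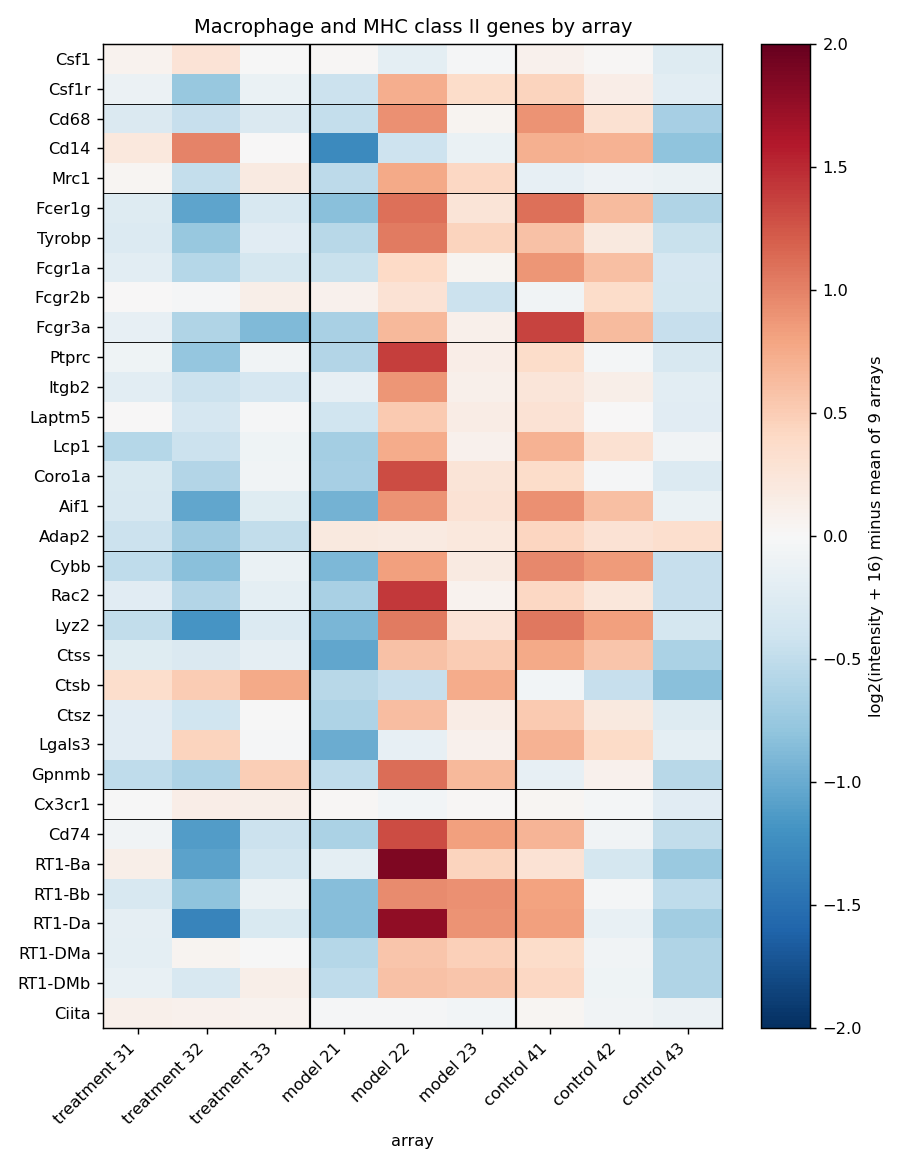
Level of each of the 33 genes tested (rows, grouped by role) on each of the 9 arrays (columns), as log2(intensity + 16) minus the gene's mean over the 9 arrays, with red above and blue below that mean. The red column of model 22 and the blue columns of treatment 32, model 21 and control 43 run through most roles, while Adap2 follows the groups.

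Adap2 encodes an ArfGAP protein with dual pleckstrin homology domains, which bind membrane phosphoinositides. Its intensities were 60.05, 46.6 and 56.6 in treatment arrays 31, 32 and 33, against 101, 99.9 and 102 in model arrays 21, 22 and 23 and 122, 108 and 113 in control arrays 41, 42 and 43. The 3 treatment values lay below every model and control value, and the 3 model values lay below every control value. On the log2 scale Adap2 averaged 6.13 ± 0.15 in treatment, 6.87 ± 0.01 in model and 7.03 ± 0.08 in control arrays (SD, n = 3 each). It fell by 0.89 on the log2 scale in treatment against control arrays (SE 0.09, limma adjusted p = 0.0162, 95% confidence interval -1.10 to -0.68).

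In treatment against model arrays Adap2 differed by -0.74 (SE 0.09, 95% interval -0.95 to -0.53), with an unadjusted p of 3.23e-05 and an adjusted p of 0.286 by limma. In model against control arrays it differed by -0.16 (SE 0.09, adjusted p = 0.482). Models 21 and 22 were alike in Adap2, and control 43 lay between controls 41 and 42. The call in treatment against control arrays held in 5 of 9 fits that each left out 1 array. It held without treatment 32 or control 43, and whichever model array was left out, which kept both compared groups whole. It was lost without treatment 31 (adjusted p = 0.0534), treatment 33 (0.0856), control 41 (0.0566) or control 42 (0.0549), with log2 fold changes of -0.95, -0.92, -0.85 and -0.93, and the adjusted p was 0.0045 without control 43.

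Csf1 encodes the growth factor that macrophages need to survive, and Csf1r its receptor. Csf1 measured 86.6, 101 and 81.0 in treatment arrays, 83.4, 69.0 and 80.1 in model arrays and 86.9, 82.9 and 65.6 in control arrays. On the probe set used, the ligand thus varied little, with log2 fold changes of 0.16, -0.01 and 0.17 in treatment against control, model against control and treatment against model arrays (limma adjusted p of 0.505, 0.973 and 0.499). Csf1 had 4 probe sets, and another of them ran from 31.7 in model 21 to 57.6 in treatment 32. Csf1r measured 29.3, 13.1 and 28.9 in treatment arrays, 20.5, 65.4 and 47.4 in model arrays and 51.5, 38.2 and 26.7 in control arrays. The receptor was highest in model 22 and lowest in treatment 32, and the 3 groups overlapped. Its log2 fold change was -0.47 in treatment against control (95% interval -1.18 to 0.25), 0.09 in model against control and -0.56 in treatment against model arrays (-1.27 to 0.16), with limma adjusted p of 0.463, 0.906 and 0.418.

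Cx3cr1, the fractalkine receptor of monocytes and many tissue macrophages, did not follow Csf1r. It measured 24.4, 28.3 and 28.0 in treatment arrays, 25.3, 23.2 and 25.1 in model arrays and 25.7, 23.3 and 18.5 in control arrays. All 9 values lay within 1.53-fold of each other, and its log2 fold change in treatment against control arrays was 0.16 (limma adjusted p = 0.343). They lay near the median probe set (23.5 to 23.96), where an even level and probe background cannot be told apart. The monocyte chemokine receptor gene Ccr2 measured 3.60, 3.10 and 3.56 in treatment arrays, 3.29, 3.40 and 3.39 in model arrays and 4.64, 3.09 and 2.89 in control arrays, below the filter on all 9. Ccr1, another chemokine receptor gene, reached the filter on 2 arrays, with a range of 9.59 to 16.7, and was not tested.

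Among the scavenger and pattern receptors, Cd68, a lysosomal glycoprotein used to stain macrophages, measured 26.7, 22.0 and 26.8 in treatment arrays, 21.8, 82.9 and 38.6 in model arrays and 81.7, 48.9 and 17.2 in control arrays. Treatment arrays were all at or below 26.8, while model and control arrays each held both low and high values. The fitted difference of Cd68 was -0.53 in treatment against control (95% interval -1.51 to 0.44), -0.01 in model against control and -0.52 in treatment against model arrays, with limma adjusted p of 0.543, 0.99 and 0.565. Mrc1, the mannose receptor of many resident macrophages, measured 63.9, 39.9 and 71.6 in treatment arrays, 37.8, 115 and 87.1 in model arrays and 53.1, 56.2 and 54.7 in control arrays. Unlike Cd68 it was even among controls, and its log2 fold changes were 0.05, 0.35 and -0.30 in the order above (adjusted p of 0.949, 0.616 and 0.644). The haemoglobin scavenger receptor gene Cd163 measured 8.01, 5.38 and 7.80 in treatment arrays, 5.80, 13.4 and 6.60 in model arrays and 5.30, 5.36 and 6.00 in control arrays, all below the filter.

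Cd14 encodes the co-receptor that presents bacterial lipopolysaccharide to Toll-like receptor 4. Its intensities were 198, 350.3 and 168 in treatment arrays, 60.4, 122 and 152 in model arrays and 284, 283 and 89.9 in control arrays. Every treatment array lay above every model array, and control 43 lay apart from the other controls within the model range. Treatment 32, the lowest array for many other members, was the highest of all 9 for Cd14. The log2 fold change was 1.01 in treatment against model arrays (95% interval -0.08 to 2.09, limma adjusted p = 0.364), -0.81 in model against control (adjusted p = 0.485) and 0.20 in treatment against control arrays (adjusted p = 0.862).

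Fc receptors bind antibody-coated particles, and the 5 members of this group had a median log2 fold change of -0.76 in treatment against control, -0.21 in model against control and -0.58 in treatment against model arrays. Without control 43 the median was -1.12 in treatment against control and -0.70 in model against control arrays, with all 5 negative in both. Fcgr1a, the high-affinity IgG receptor, measured 24.5, 15.7 and 20.7 in treatment arrays, 18.4, 45.9 and 32.8 in model arrays and 70.4, 55.6 and 21.1 in control arrays. Controls 41 and 42 exceeded every other array, while control 43 lay inside the treatment range. The log2 fold change in treatment against control arrays was -0.76 (SE 0.32, limma adjusted p = 0.277), and without control 43 it was -1.12 (adjusted p = 0.03). Fcgr3a, a low-affinity IgG receptor, measured 40.6, 25.8 and 18.4 in treatment arrays, 24.4, 82.9 and 51.5 in model arrays and 145, 82.2 and 29.9 in control arrays. Its groups overlapped, with a log2 fold change of -1.05 in treatment against control arrays (95% interval -2.14 to 0.03, adjusted p = 0.299).

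The signalling adaptors listed with these receptors had similar profiles. Fcer1g, the common gamma chain, averaged 7.07 ± 0.45 in treatment, 7.79 ± 0.97 in model and 7.997 ± 0.88 in control arrays on the log2 scale, and Tyrobp, the adaptor DAP12, 5.87 ± 0.29, 6.59 ± 0.81 and 6.40 ± 0.52. Their log2 fold changes in treatment against control arrays were -0.92 and -0.53, and neither passed (adjusted p of 0.418 and 0.519). The inhibitory receptor gene Fcgr2b differed from the rest of its group, at 6.76 ± 0.07, 6.71 ± 0.38 and 6.71 ± 0.36, with control 42 highest at 119.98 and model 23 lowest at 62.2.

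Among genes shared by most leukocytes, Ptprc, the tyrosine phosphatase CD45, measured 24.4, 9.03 and 24.5 in treatment arrays, 12.3, 95.8 and 30.9 in model arrays and 38.9, 25.4 and 18.1 in control arrays. Model 22 was 10.6-fold above treatment 32, the widest span among the 33 genes. Fitted log2 fold changes were -0.31, 0.31 and -0.62 in treatment against control, model against control and treatment against model arrays (95% intervals -1.35 to 0.74, -0.73 to 1.36 and -1.66 to 0.42). Itgb2, the integrin beta chain of leukocyte adhesion receptors, measured 36.8, 28.9 and 32.4 in treatment arrays, 38.2, 96.5 and 49.5 in model arrays and 56.0, 49.7 and 36.7 in control arrays. Treatment arrays lay below all model arrays, by a narrow gap between treatment 31 and model 21. The log2 fold change in treatment against model arrays was -0.60 (95% interval -1.17 to -0.03, unadjusted p = 0.0411, limma adjusted p = 0.326).

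With Adap2 counted in, this group held 7 tested genes, and all 7 had negative log2 fold changes when treatment was compared with control (median -0.37) and with model (median -0.61). The actin-bundling gene Lcp1 averaged 6.28 ± 0.25 in treatment, 6.69 ± 0.71 in model and 6.95 ± 0.38 in control arrays (log2 scale), and every treatment array lay below every control. Aif1, which encodes the macrophage protein Iba1, averaged 5.32 ± 0.44, 5.93 ± 0.94 and 6.31 ± 0.54, likewise without overlap between treatment and control. Neither passed in treatment against control arrays (-0.67 and -0.99, adjusted p of 0.347 and 0.319). A second probe set of Aif1 was flat, at 21.8 to 28.9 on all arrays. Coro1a, an actin-binding coronin of leukocytes, and Laptm5, a lysosomal membrane protein, had treatment against control log2 fold changes of -0.34 and -0.14. A second probe set of Laptm5 varied more widely than the one used. It measured 52.1, 27.5 and 56.8 in treatment arrays, 36.6, 174.7 and 93.1 in model arrays and 86.7, 69.3 and 51.0 in control arrays. The integrin alpha chain gene Itgam measured 7.39 to 8.78 and was below the filter on all 9 arrays.

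The phagocyte NADPH oxidase makes superoxide, and its catalytic subunit gene Cybb averaged 6.28 ± 0.35 in treatment, 6.80 ± 0.87 in model and 7.22 ± 0.79 in control arrays on the log2 scale. Rac2, the GTPase that activates it, averaged 6.91 ± 0.22, 7.53 ± 1.05 and 7.31 ± 0.46. Cybb was high in controls 41 and 42 (197 and 180.1) and model 22 (177), and Rac2 was highest in model 22 (389). In treatment against control arrays their log2 fold changes were -0.94 and -0.40, and neither passed (adjusted p of 0.359 and 0.696). The cytosolic subunit gene Ncf1 measured 7.85 to 10.6 and was not tested.

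Among the lysosomal and phagocyte products, Lyz2, the lysozyme of macrophages, measured 654, 401 and 762 in treatment arrays, 485, 1916 and 1127 in model arrays and 1939, 1648 and 726 in control arrays. Only treatment 33 exceeded control 43, and controls 41 and 42 lay far above every treatment array. Its log2 fold change was -1.16 in treatment against control arrays (95% interval -2.38 to 0.06, limma adjusted p = 0.309), the most negative of the 33, and -0.78 in treatment against model arrays (adjusted p = 0.49).

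Ctsb, the cysteine protease cathepsin B, ran the other way. It measured 3478, 3897 and 4649 in treatment arrays, 1857, 1986 and 4557 in model arrays and 2632, 1972 and 1515 in control arrays. All treatment arrays exceeded all controls, and model 23 alone of the model arrays reached the treatment range. The log2 fold change was 0.99 in treatment against control (SE 0.34, 95% interval 0.21 to 1.78, unadjusted p = 0.0194, limma adjusted p = 0.216) and 0.63 in treatment against model arrays (adjusted p = 0.409). Other cell types of the uterus express cathepsin B as well.

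Lgals3, the galactose-binding lectin galectin 3, measured 851, 1363 and 977 in treatment arrays, 494, 891 and 1057 in model arrays and 1617, 1313 and 869.6 in control arrays. Model 21 lay below all others, and its log2 fold change in model against control arrays was -0.65 (95% interval -1.40 to 0.10, limma adjusted p = 0.435), the smallest p of the 33 in that comparison. Gpnmb, a transmembrane glycoprotein of phagocytes, measured 124, 114 and 261 in treatment arrays, 123, 413 and 295 in model arrays and 160.1, 195 and 119.6 in control arrays. It overlapped between all groups, with log2 fold changes of 0.63 in model against control and -0.63 in treatment against model arrays (adjusted p of 0.538 and 0.501). The cathepsins Ctss, which trims the invariant chain, and Ctsz averaged 8.14 ± 0.06 and 6.19 ± 0.19 in treatment, 8.39 ± 0.92 and 6.45 ± 0.62 in model, and 8.59 ± 0.75 and 6.56 ± 0.39 in control arrays on the log2 scale. Ctss was even among treatment arrays (255 to 278) and wide among model arrays (145 to 479.8).

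**Figure D2:**
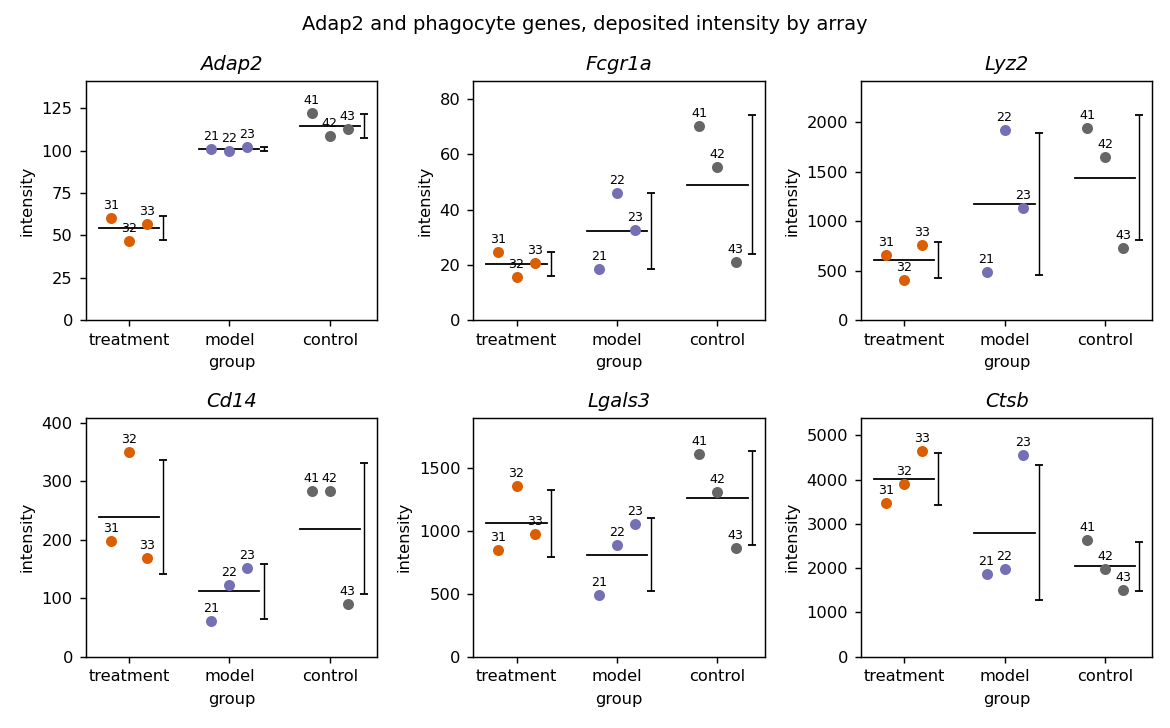
Deposited intensity (vertical axis, from 0) of 6 of the genes on each array, labelled by array number, in treatment, model and control groups, with a line at the mean of 3 arrays and a bar of 1 SD. Adap2 separates treatment from both other groups, Cd14 separates treatment from model and Ctsb separates treatment from control, while Fcgr1a, Lyz2 and Lgals3 overlap and control 43 is the lowest control in 5 of the 6 panels.

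Class II genes carry X and Y boxes upstream of their start, bound by RFX, CREB and NF-Y proteins, to which the transactivator Ciita is recruited. The sequences of the 4 class II members of the RT1 complex with a Y box core are shown because RT1-Da and RT1-Ba swung most between arrays among the class II genes and the others share the element with them. They are RefSeq sequences of assembly GRCr8, the 120 bases before the annotated start on the strand of the gene, at chr20:4515295-4515414 (plus strand) for RT1-Da, chr20:4576937-4577056 (plus) for RT1-Ba, chr20:4604119-4604238 (minus) for RT1-Bb and chr20:4712336-4712455 (minus) for RT1-DMa. Capitals mark the cores ATTGG (Y box), TAGCAAC (X1 box) and TGACGTCA (X2 box).
RT1-Da: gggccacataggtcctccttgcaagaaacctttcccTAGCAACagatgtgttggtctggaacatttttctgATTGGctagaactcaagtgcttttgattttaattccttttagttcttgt
RT1-Ba: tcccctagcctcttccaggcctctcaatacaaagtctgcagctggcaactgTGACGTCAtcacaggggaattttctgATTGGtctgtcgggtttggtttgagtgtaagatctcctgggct
RT1-Bb: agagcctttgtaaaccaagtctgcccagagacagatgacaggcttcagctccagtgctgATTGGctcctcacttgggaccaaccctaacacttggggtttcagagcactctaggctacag
RT1-DMa: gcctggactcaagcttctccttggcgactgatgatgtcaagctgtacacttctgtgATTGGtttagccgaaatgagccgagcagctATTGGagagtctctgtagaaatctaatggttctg

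Promoters were matched for 25 of the genes, 5 of them among the 7 class II genes. Searched on both strands of the 120 bases, ATTGG was found in 4 of these 5, in 4 of the other 20 members and in 19.9% of 33469 rat promoters of that length. It lay 49 to 45 bases before the start of RT1-Da, 43 to 39 before that of RT1-Ba and 61 to 57 before that of RT1-Bb. TAGCAAC was found in RT1-Da (84 to 78 bases before the start) and Cd74 (72 to 66 bases before), in 0 of the other 20 members and in 1.62% of all promoters. TGACGTCA was found in RT1-Ba (69 to 62 bases before), in 0 of the other 20 and in 1.18% of all promoters. A match describes these letters and does not show binding.

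Cd74, the invariant chain, measured 506, 236 and 390.4 in treatment arrays, 337, 1339.8 and 949.8 in model arrays and 863, 504 and 375 in control arrays. RT1-Da, the class II DR-type alpha chain whose promoter holds an X1 and a Y core, measured 286, 121 and 261 in treatment arrays, 173, 1158 and 625 in model arrays and 588, 294 and 196 in control arrays. RT1-Ba, the DQ-type alpha chain, measured 242, 97.9 and 169 in treatment arrays, 192, 858 and 311 in model arrays and 278, 172 and 128 in control arrays. In all 3 genes model 22 was the highest of the 9 arrays, treatment 32 the lowest, and the groups overlapped. Model 22 exceeded treatment 32 by 5.68-fold for Cd74, 9.57-fold for RT1-Da and 8.76-fold for RT1-Ba.

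None of these passed in any comparison by limma. In treatment against model arrays the log2 fold changes were -1.04 for Cd74 (95% interval -2.23 to 0.15), -1.21 for RT1-Da (-2.75 to 0.32) and -1.15 for RT1-Ba (-2.37 to 0.07), with adjusted p of 0.381, 0.415 and 0.361. In model against control arrays they were 0.46, 0.61 and 0.97 (adjusted p of 0.7, 0.687 and 0.467), and in treatment against control arrays -0.58, -0.60 and -0.18 (adjusted p of 0.594, 0.679 and 0.891). All 3 intervals in treatment against model arrays include 0. RT1-Ba was represented by 4 probe sets. The one used and a second varied with model 22, whereas the other two stayed at 77.8 to 124 and 92.9 to 135 on all arrays.

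RT1-Bb, the DQ-type beta chain, averaged 6.58 ± 0.34 in treatment, 7.33 ± 1.03 in model and 7.08 ± 0.67 in control arrays on the log2 scale. The peptide-loading genes were closer between groups. RT1-DMa averaged 5.95 ± 0.13 in treatment, 6.16 ± 0.62 in model and 5.90 ± 0.49 in control arrays, and RT1-DMb 7.55 ± 0.22, 7.88 ± 0.63 and 7.58 ± 0.51. Across the 7 class II genes the median log2 fold change was -0.18 in treatment against control, with 2 positive and 5 negative, 0.30 in model against control, with 7 positive, and -0.76 in treatment against model arrays, with 1 positive and 6 negative. Without control 43 the model against control median was 0.05, with 5 positive and 2 negative, and the treatment against control median was -0.42. The summed intensities of the 7 genes were 1358, 738 and 1200.1 in treatment arrays, 936, 3978 and 2493 in model arrays and 2286, 1323 and 939 in control arrays. Model 21 and control 43 were thus near treatment 32, and models 22 and 23 and control 41 were the 3 highest.

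Ciita, the master regulator of class II transcription, did not vary with the genes it controls on the probe set used. It measured 29.3, 28.5 and 28.3 in treatment arrays, 25.2, 25.2 and 24.6 in model arrays and 27.3, 23.9 and 22.8 in control arrays. Every treatment array lay above every model and control array, within a 1.28-fold range over all 9. Its fitted difference was 0.14 in treatment against control (unadjusted p = 0.0472, limma adjusted p = 0.285), 0.01 in model against control (adjusted p = 0.937) and 0.12 in treatment against model arrays (adjusted p = 0.365). These values lay near the median probe set (23.5 to 23.96). A second, dimmer probe set measured 19.3, 17.2 and 17.2 in treatment arrays, 14.9, 30.4 and 23.1 in model arrays and 26.6, 19.3 and 10.2 in control arrays. Like Cd74 and RT1-Da it was highest in model 22. It gave a treatment against model log2 fold change of -0.18, so the profile and direction for Ciita depend on the probe set.

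**Figure D3:**
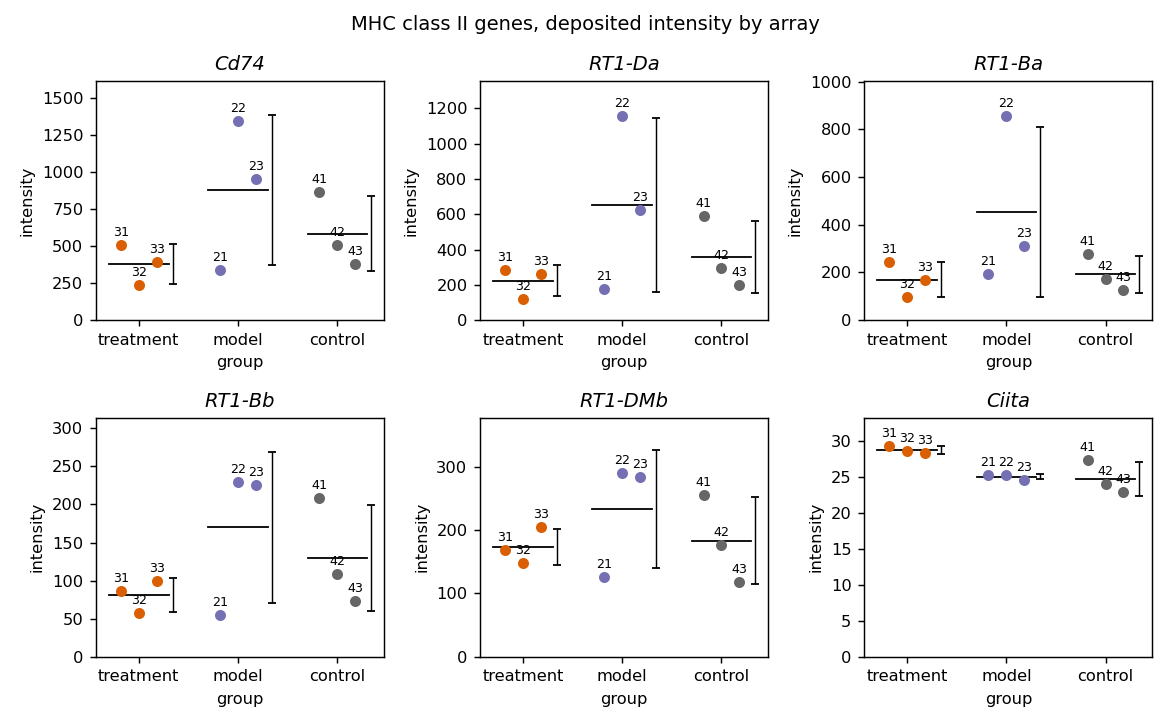
Deposited intensity (vertical axis, from 0) of 6 class II genes on each array, labelled by array number, in treatment, model and control groups, with a line at the mean of 3 arrays and a bar of 1 SD. Model 22 is the highest array for Cd74, RT1-Da, RT1-Ba, RT1-Bb and RT1-DMb, model 21 lies far below it, and Ciita stays within 1.28-fold.

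**Figure D4:**
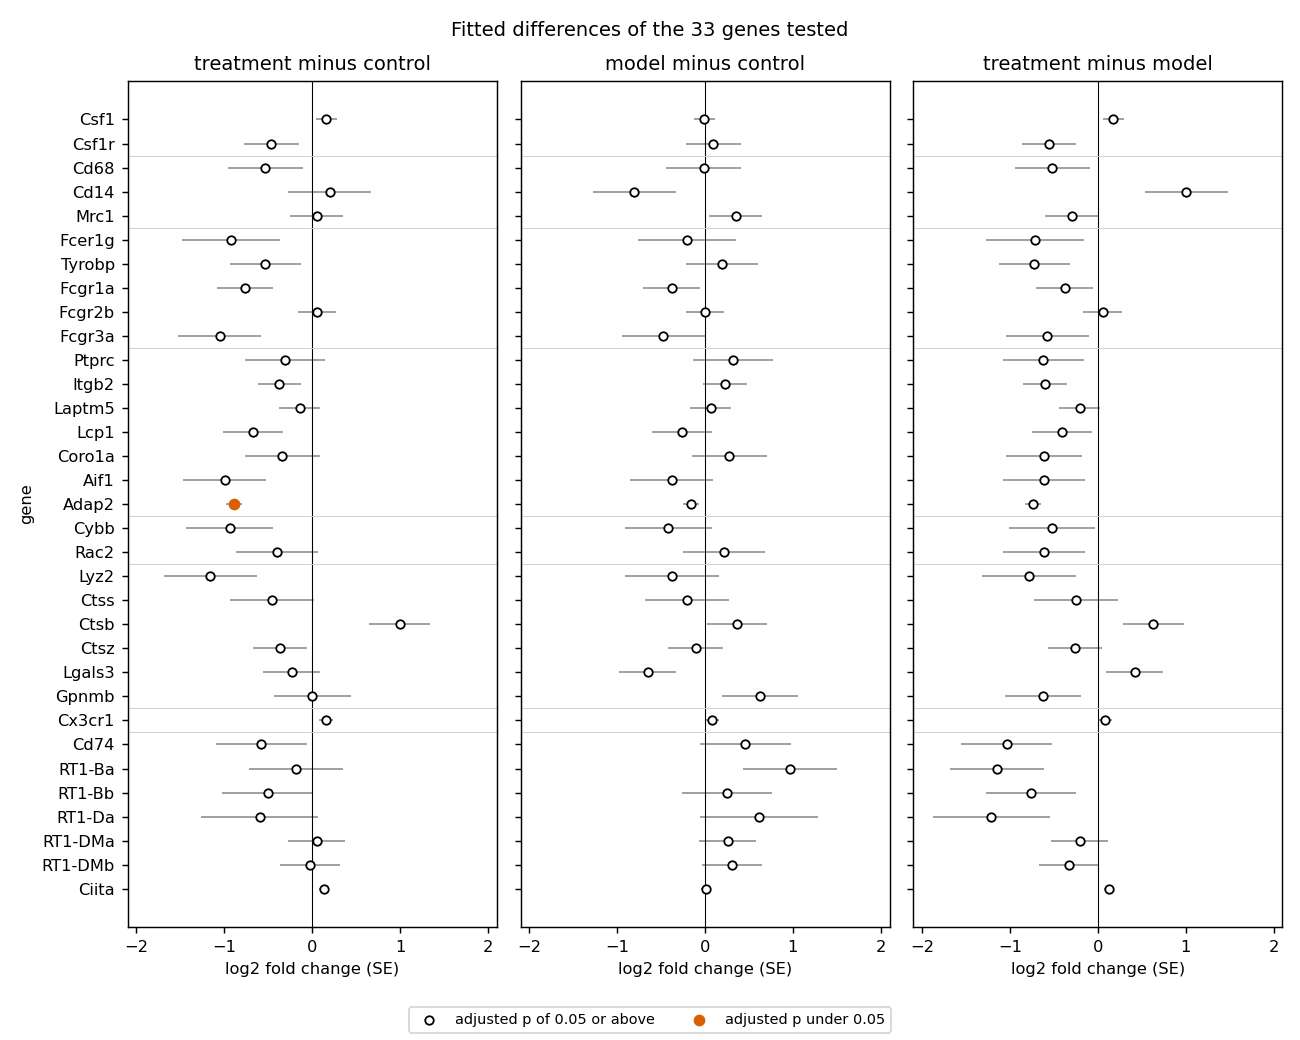
Fitted log2 fold change (horizontal axis) with its standard error for each of the 33 genes in treatment minus control, model minus control and treatment minus model, with genes grouped by role. The single filled point is Adap2 in treatment minus control at -0.89, while Ctsb (0.99) and Cd14 (1.01 against model) lie furthest to the right.

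The fold change plot shows how far the standard errors differed between genes. Standard errors were 0.09 for Adap2, 0.08 for Cx3cr1 and 0.06 for Ciita, against 0.53 for Lyz2 and RT1-Ba, 0.56 for Fcer1g and 0.67 for RT1-Da. For Lyz2, RT1-Ba, Fcer1g and RT1-Da the 95% interval included 0 in all 3 comparisons. A difference between groups was not detectable beyond the spread of these arrays, and it was not shown to be absent.

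Macrophage genes outside these 40 were also mostly negative when treatment arrays were compared, and 0 of them passed by limma. An unadjusted p under 0.05 was found for 3, 2 and 5 in treatment against control, model against control and treatment against model arrays. Over all genes the shares at that threshold were 17.4%, 12.4% and 14.7%. Of 40 listed, 27 were tested, with a median log2 fold change of -0.31 in treatment against control (3 positive, 24 negative), 0.13 in model against control (18 positive, 9 negative) and -0.38 in treatment against model arrays (2 positive, 25 negative). Over all genes 57.8%, 46.5% and 61.1% were negative. The 27 genes were low and high in the same arrays as the 33, with median levels of -0.50 in treatment 32, -0.34 in model 21 and 0.47 in model 22 on the log2 scale. They are therefore not independent of the 33. The smallest p in treatment against control arrays belonged to the Toll-like receptor genes Tlr4 (-0.76, adjusted p = 0.257) and Tlr2 (-0.87, adjusted p = 0.263) and the phospholipase family gene Pld4 (-0.60, adjusted p = 0.268). Tlr2 measured 19.6, 17.6 and 16.1 in treatment arrays, 11.8, 26.2 and 19.5 in model arrays and 79.0, 60.9 and 16.3 in control arrays, again with control 43 apart from controls 41 and 42.

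Other genes of class II presentation were 14 tested of 19 listed, with medians of -0.08, 0.07 and -0.16 in treatment against control, model against control and treatment against model arrays. Of these 0 passed by limma, and 4, 0 and 4 had an unadjusted p under 0.05, against 17.4%, 12.4% and 14.7% of all genes. The class II beta chain gene RT1-Db1 measured 126, 67.6 and 102 in treatment arrays, 90.7, 463 and 265 in model arrays and 188, 104 and 77.7 in control arrays. Like RT1-Da it was highest in model 22 and lowest in treatment 32 (model against control log2 fold change 0.88, adjusted p = 0.488). Creb1, an X box factor gene, measured 35.0, 34.5 and 44.2 in treatment arrays against 68.5, 63.6 and 58.0 in model arrays, without overlap (-0.56, limma adjusted p = 0.286), and 50.9, 47.2 and 58.6 in control arrays. The cysteine protease gene Ctsl measured 1517, 1491 and 1794 in treatment arrays, 477, 1190.3 and 1363 in model arrays and 669, 702 and 588 in control arrays. As with Ctsb, every treatment array lay above every control (1.27, adjusted p = 0.132).

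Of 13 macrophage effector and alternative activation genes 7 were tested and 0 passed by limma (2, 1 and 1 at an unadjusted p under 0.05 in the order above, against 17.4%, 12.4% and 14.7% of all genes). Spp1, which encodes osteopontin, a product of macrophages and of uterine epithelium alike, measured 3040, 4379 and 851 in treatment arrays, 488, 484 and 3882 in model arrays and 74.9, 93.0 and 298 in control arrays. Every treatment and model array exceeded every control, with a log2 fold change of 3.96 in treatment against control arrays (SE 0.93, adjusted p = 0.118). Tnf, Il6, Arg1, Il10, Ccl2 and Il1rn were not among the genes tested.

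Markers of other cell types also varied between arrays, not always in the same ones. The 6 T and NK cell genes tested of 16 summed to 107 to 150 in treatment arrays, 143, 377 and 187 in model arrays 21, 22 and 23, and 118 to 150 in control arrays, so model 22 was the highest there too. Their median log2 fold changes were 0.04, 0.52 and -0.43 in treatment against control, model against control and treatment against model arrays. All 6 were negative in treatment against model arrays. The 3 neutrophil genes tested of 13 (S100a8, S100a9 and Lcn2) summed to 753, 2183 and 1345 in treatment arrays, 85.9, 1925 and 1339 in model arrays and 941, 588 and 45.3 in control arrays. Treatment 32, low for most macrophage genes, thus had the highest of the 9 sums. The median log2 level of the 3 genes, each taken against its mean over the arrays, was instead -0.15 in treatment 32 and 1.36 in model 22. S100a8 measured 13.5 in treatment 32 and 42.5 in model 22. Lcn2, which encodes lipocalin 2 and made up most of these sums, measured 2152 in treatment 32, 1782 in model 22, 67.5 in model 21 and 9.19 in control 43. S100a9, a calcium-binding protein of neutrophils and monocytes, measured 17.5 in treatment 32, 99.9 in model 22, 7.26 in model 21 and 21.3 in control 43. Of 11 B and plasma cell genes only Xbp1 was tested, and Cd79a, Cd79b and Ms4a1 were not among the genes tested. The 7 dendritic cell genes tested of 12 had medians of -0.11, 0.08 and -0.07 in the comparisons as ordered above.

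Structural markers also differed within groups. Epithelial genes, 16 of 16 tested, summed to 4708 to 7211 in treatment arrays, 4084 to 5568 in model arrays and 21177, 15578 and 5214 in controls 41, 42 and 43. Their median log2 fold changes were -0.50, -0.80 and 0.37 in treatment against control, model against control and treatment against model arrays. Of the 16, 14, 15 and 3 were negative. Endothelial genes, 9 of 10 tested, summed to 1154, 505 and 1057 in treatment arrays 31, 32 and 33, 1218 to 1384 in model arrays and 832 to 1620.0 in control arrays, so treatment 32 was low in these as well. In the same order of comparisons their medians were -0.32, 0.21 and -0.50, with 8, 2 and 9 of 9 genes negative. Negative medians where treatment arrays were compared were thus not limited to macrophage genes. Smooth muscle genes, 12 of 12 tested, had medians of 0.41, 0.38 and -0.03 in treatment against control, model against control and treatment against model arrays, stromal genes, 9 of 9 tested, medians of -0.20, 0.24 and -0.17, and the 4 mast cell genes tested of 11 medians of 0.09, 0.04 and 0.05. The 1 eosinophil gene tested of 8 had log2 fold changes of 0.14, -0.05 and 0.19. Of the 68 genes tested in the cell type lists 0 passed in any comparison by limma, and 12, 12 and 6 had an unadjusted p under 0.05. Over all genes the shares at that threshold were 17.4%, 12.4% and 14.7%. Their part in the levels of the macrophage and class II genes was not tested.

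**Figure D5:**
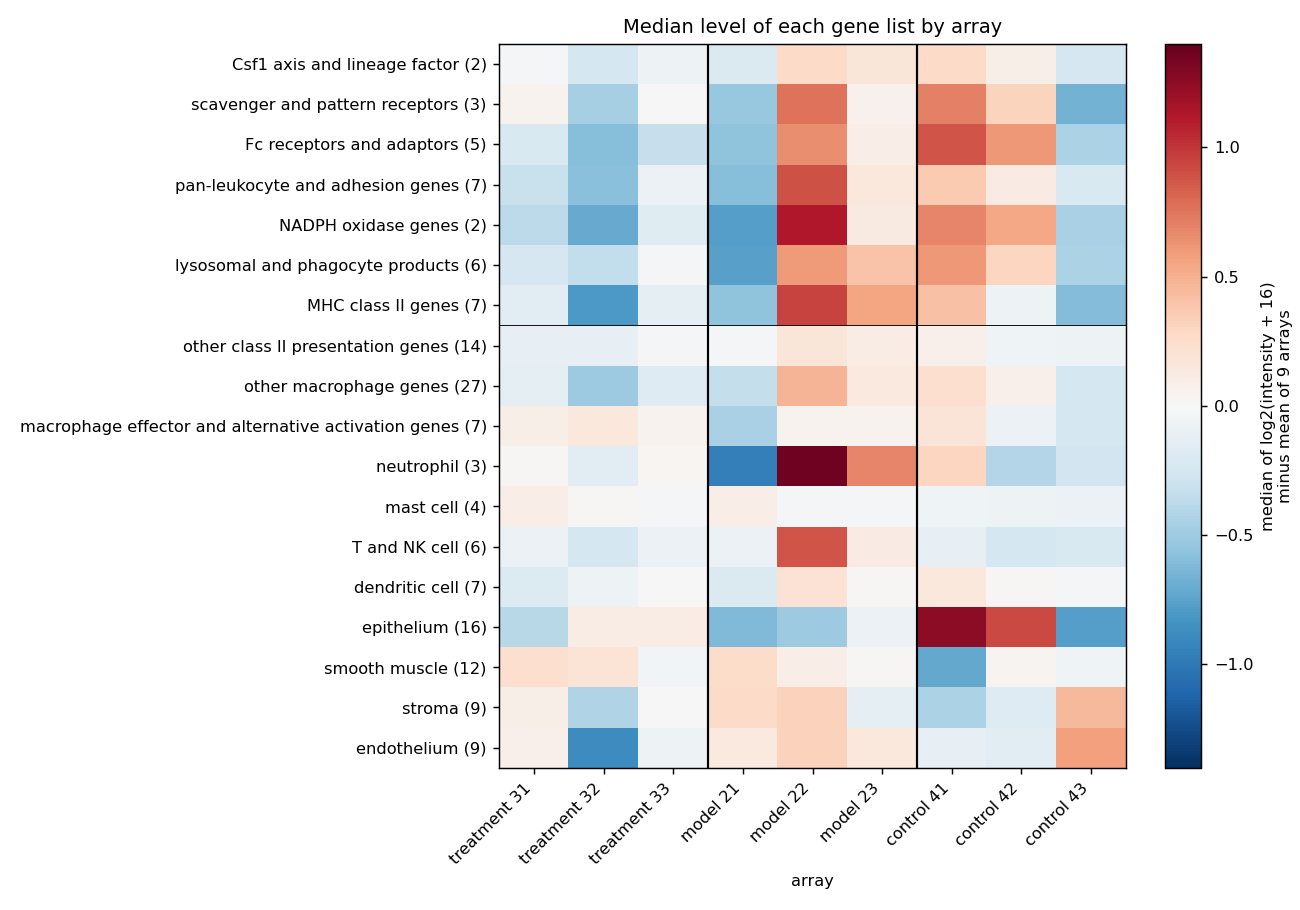
Median over the tested genes of each list (number in brackets) of log2(intensity + 16) minus the gene's mean over 9 arrays, for each array (columns), with the roles of the macrophage and class II genes above the line and other lists below it. Model 22 is above its mean for macrophage, class II, neutrophil and T and NK cell lists, while controls 41 and 42 are above theirs for epithelium and control 43 is below.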

How the data were processed

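Total uterine RNA was hybridised to 9 Affymetrix arrays after biotin labelling of 6 µg. The authors deposited normalized probe set intensities on a linear scale, and the submitters' processing notes name MAS5, a probe summary method. The sources used here give no MAS5 settings, scaling or detection calls. The number of arrays, not a read depth, limits the precision. Of 31099 probe sets, 57 were controls, 20826 had 1 symbol (20758 matched to RefSeq genes), 436 had several and 9780 none. Intensities were kept as deposited and taken as log2(intensity + 16). A probe set was kept if on at least 3 of 9 arrays it reached that array's 40th percentile (an intensity of 15.2 to 16.2) (19326, of which 14553 had 1 symbol). The probe set of highest mean stood for each gene, which gave 10973 genes.

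All 9 arrays entered 1 fit of 3 contrasts in R 4.3.3 with limma 3.58.1, using lmFit and then eBayes with trended variance, 6 residual degrees of freedom and two-sided tests. P-values were Benjamini-Hochberg adjusted over the 10973 genes, with a threshold of 0.05. The fit was run on simulated data with known changes, in which each gene varied independently. The simulation therefore does not cover genes that move together, as these do. The 40 genes and all lists were chosen with earlier results of these data known. Values on all arrays are given for the 6 genes with the smallest p in each comparison, for 13 genes named by role (Csf1, Csf1r, Cd68, Cd163, Mrc1, Ccr2, Cx3cr1, Ptprc, Lyz2, Cd74, RT1-Ba, RT1-Da and Ciita) and for any gene that passed in any fit; other lists are given by counts, medians and the genes with the smallest p. The filter removed Cd163, Itgam, Ncf1, Ccr1 and Ccr2. Alternatives were 1 or 64 added, quantile normalization, median centring, no filter or a 60th percentile filter, no variance trend or a robust one, the compared groups alone, the mean of a gene's probe sets, each other probe set, a replicate block, an adjusted p under 0.1 and each array left out. Plots used Python 3.11.15 and matplotlib 3.10.9.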

Additional observations from a re-analysis of the deposited data

How the results depend on the processing

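With 3 arrays a group, most intervals are wide, the deposited scaling is unknown, and a dim gene's fold change depends on the constant added. The count of the 33 genes that passed in treatment against control arrays was 1 in each of the 12 alternatives that kept all arrays; with an array left out it was 0 to 2, being 0 without treatment 31, treatment 33, control 41 or control 42 and 2 without control 43. Over all genes, 56 passed in treatment against control arrays, 27 with a replicate block by the arrays' last digits, 164 at an adjusted p under 0.1 and 0 to 720 with an array left out. Leaving out treatment arrays 31, 32 and 33 gave 2, 11 and 0 genes, models 22 and 23 gave 13 and 95, and controls 41, 42 and 43 gave 4, 5 and 720. In model against control arrays 3 passed, 1 without the filter, 1 with the compared groups alone, 9 at an adjusted p under 0.1 and 0 to 1384 with an array left out (1384 without control 43). In treatment against model arrays 0 passed, and 0 to 3 with an array left out (3 without model 23). The replicate numbers of the labels are not shared between groups, so the block is by last digit alone, and under it Adap2 kept its call (adjusted p = 0.0312).

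Of 2007 single-gene values under alternatives 1922 kept their direction and side of the threshold, and 80 turned their sign, none of them of a gene that passed. The cause was not tested. Many of the values could not turn their sign. The variance settings, the compared groups alone, the replicate block and leaving out an array of the third group keep the log2 fold change as it was. The 1922 is therefore not a measure of stability. Other probe sets gave treatment against control 0.068 for Aif1, -0.0043 for Ciita and 0.25 and 0.22 for RT1-Ba, model against control 0.0041 for Aif1, -0.079 for RT1-Bb and 0.20 and 0.089 for Csf1, and treatment against model 0.064 for Aif1, 0.068 for RT1-Bb, -0.18 for Ciita and 0.19 and 0.19 for RT1-Ba. The mean of probe sets gave 0.058 for Csf1 (model against control) and -0.026 for Ciita (treatment against model). Quantile normalization gave 0.084 for Gpnmb and 0.0704 for RT1-DMb (treatment against control), and -0.007 for Fcgr2b and -0.0006 for Ciita (model against control). Gpnmb was 0.0096 in treatment against control arrays with 64 added. In model against control arrays Cd68 was 0.004 and Fcgr2b -0.0005 with 1 added, and Fcgr2b was -0.0081 under median centring.

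With an array left out, log2 fold changes in treatment against control arrays ran from -0.30 to 0.45 for Cd14, -0.080 to 0.24 for Mrc1, -0.11 to 0.24 for Fcgr2b, -0.35 to 0.20 for Gpnmb, -0.46 to 0.13 for RT1-Ba, -0.20 to 0.29 for RT1-DMa and -0.28 to 0.23 for RT1-DMb. Those in model against control arrays ran from -0.11 to 0.057 for Csf1, -0.16 to 0.42 for Csf1r, -0.43 to 0.34 for Cd68, -0.70 to 0.30 for Fcer1g, -0.17 to 0.62 for Tyrobp, -0.17 to 0.21 for Fcgr2b, -0.23 to 0.77 for Ptprc, -0.079 to 0.45 for Itgb2, -0.15 to 0.31 for Laptm5, -0.61 to 0.098 for Lcp1, -0.22 to 0.76 for Coro1a, -0.79 to 0.14 for Aif1, -0.87 to 0.049 for Cybb, -0.35 to 0.68 for Rac2, -0.83 to 0.15 for Lyz2, -0.63 to 0.32 for Ctss, -0.05 to 0.59 for Ctsb, -0.39 to 0.23 for Ctsz, -0.051 to 0.84 for RT1-Bb and -0.021 to 0.058 for Ciita. Those in treatment against model arrays ran from -0.16 to 0.21 for Fcgr2b, -0.45 to 0.0097 for Laptm5, -0.78 to 0.030 for Ctss and -0.59 to 0.023 for Ctsz.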
